A study of Gallus gallus with 10 samples.

Results

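Transcripts of 10 stimulus-responsive transcription factor genes were described in chick choroid with and without a nitric oxide donor: NR4A1, NR4A2, NR4A3, FOS, FOSB, FOSL2, JUN, JUND, EGR1 and ATF3. They were found by exact match of the common name in a table of 24355 genes, and each name stood on 1 row. All 10 were among the 11357 genes that had no missing value and reached an FPKM (a read level scaled to transcript length and to the reads of the library) of 1 in at least 5 libraries. The choice of the genes drew on the difference between treated and control libraries, so that this difference is given for them as a description, without a test.

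The tissue was the choroid, the vascular and pigmented layer behind the retina, from normal eyes of chicks (strain given as Domesticus) on day 15 after hatching. Whole-tissue RNA was sequenced in 5 choroid libraries with PAPA-NONOate, a donor that breaks down in solution to nitric oxide, and in 5 control libraries without it. The labelled incubation was 24 hours with 1.5 mM of the donor at 37 °C in 5% CO2, and the same text stands on the controls, whose titles mark the donor as absent. The replicates are numbered 2, 3, 4, 5 and 8 in both groups, with the letter R on treated and L on control libraries. What the letters stand for is not given, and it cannot be told apart from the treatment. Whether libraries that share a number came from the same chick, and whether each replicate was a different chick, is not stated, and errors and p-values therefore cover the spread among these libraries alone, which may be technical.

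FOS and JUN proteins carry a basic leucine zipper and bind DNA as pairs, FOS with JUN, in the complex known as AP-1. ATF3 is a relative that pairs with JUN or itself, EGR1 is a zinc finger protein, and the NR4A proteins are orphan nuclear receptors that bind DNA as monomers or as pairs. Many of these genes are immediate early genes: their transcription starts within minutes of a stimulus through factors already in the cell, such as SRF and CREB, and their transcripts usually decay quickly. JUND is the member whose transcript is commonly present at a steady level in resting cells.

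In 7 of the 10 genes the treated level exceeded the control level by 1.53 to 6.17 times (ratio of mean FPKM), in the order FOSB, NR4A3, FOS, NR4A1, NR4A2, EGR1 and ATF3. JUN, JUND and FOSL2 differed by 1.04 to 1.06 times in the FPKM as deposited, less than the SD of either group. After median-ratio scaling of the libraries their ratios were 1.18 to 1.19. Of all genes tested 219 (1.93%) were called higher in limma (Benjamini-Hochberg adjusted p under 0.05) and 9.34% in either direction, and the same 7 of the 10 genes, which this contrast chose, are among the 219. The groups did not overlap in 6 of the 10, with the treated libraries above, as they were in 1.84% of all genes tested (9.32% with either group above). Because the genes were chosen from this contrast, nothing is read from these counts. The median gene was itself lower with the donor, by a log2 fold change of -0.18, and all 10 genes lay above that median. In whole tissue, fewer cells of a type and less RNA per cell cannot be told apart.

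**Figure D1:**
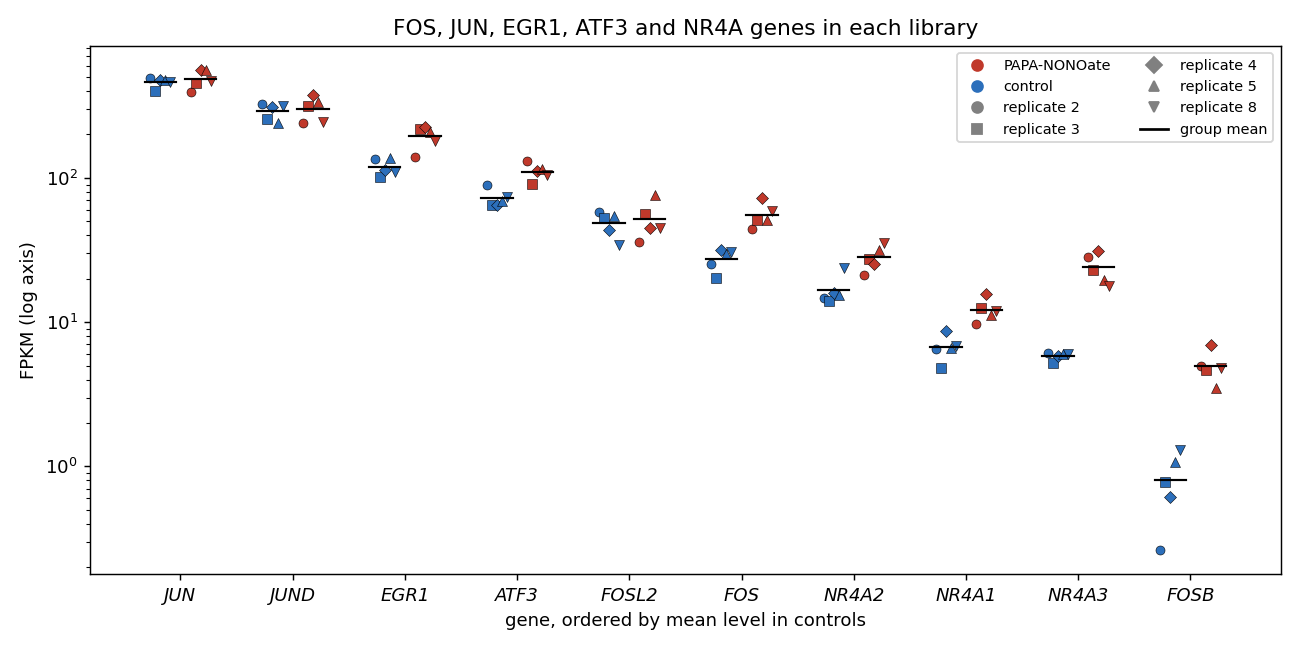
FPKM (log axis) of the 10 genes in each of the 10 libraries, ordered by mean control level, with treated libraries in red, controls in blue, a marker shape per replicate number and bars at group means. The groups stand apart for FOSB (3.52 to 6.89 against 0.262 to 1.30) and NR4A3 (17.8 to 31.1 against 5.20 to 6.08) and lie over each other for JUN, JUND and FOSL2.

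Of the nuclear receptors, NR4A3 (ENSGALG00000013568) had the widest gap between the groups. In treated replicates 2, 3, 4, 5 and 8 it stood at 28.5, 22.9, 31.1, 19.5 and 17.8 FPKM, and in the controls of the same numbers at 6.08, 5.20, 5.81, 5.99 and 6.003 FPKM. Every treated library was above every control, and the lowest of them was 2.92 times the highest control. The controls were the tightest group of any member, with a coefficient of variation of 6.16%, against 23.9% with the donor. On the log2(FPKM + 0.5) scale the difference was 1.92 (SE 0.16), the 15th largest of all genes tested when ranked from the top.

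NR4A1 (ENSGALG00000043727), known in lymphocytes for its rapid induction by receptor stimulation, was at 9.78, 12.5, 15.6, 11.2 and 11.9 FPKM with the donor and at 6.47, 4.84, 8.72, 6.66 and 6.81 FPKM without it, in the same order of replicates. The treated libraries lay above the controls without overlap, and replicate 4 was the highest in both groups. NR4A2 (ENSGALG00000012538), best known for its role in dopamine neurons, was at 21.4, 27.5, 25.2, 31.7 and 35.6 FPKM against 14.8, 13.9, 16.02, 15.5 and 23.6 FPKM. The groups overlapped, because control replicate 8 stood above treated replicate 2. After median-ratio scaling of the libraries they did not overlap, at 26.0 to 36.7 against 12.6 to 21.2. The log2 fold changes were 0.82 (SE 0.16) for NR4A1 and 0.74 (SE 0.17) for NR4A2, which ran from 0.65 to 0.92 over all settings. NR4A2 was called higher in 18 of 20 settings, the exceptions being those without control replicate 2 or control replicate 3.

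The makeup of the NR4A transcripts also differed between the groups. Summed over the 3 receptors, the level was 64.5 ± 4.603 FPKM with the donor and 29.3 ± 4.64 FPKM in controls (SD, n = 5), without overlap. NR4A3 made up 27.2 to 47.8% of that sum in treated libraries and 16.5 to 22.3% in controls, a share that does not depend on how libraries are scaled against each other. NR4A2 was the most abundant of the 3 in all 5 controls, at 52.4 to 64.8% of the sum. With the donor NR4A3 exceeded NR4A2 in replicates 2 and 4 (1.33 and 1.24 times) and stayed below it in replicates 3, 5 and 8 (0.831, 0.615 and 0.4996 times). NR4A1 took the smallest share in every treated library, from 16.4 to 21.7%.

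Among the FOS genes, FOSB (ENSGALG00000041280), a FOS relative of the early response, had the highest ratio of the 10 genes and the lowest level. Its values were 4.96, 4.64, 6.89, 3.52 and 4.80 FPKM with the donor and 0.262, 0.773, 0.609, 1.07 and 1.30 FPKM in controls. The lowest treated library was 2.70 times the highest control. FOSB reached 1 FPKM in 7 libraries, the 5 treated ones and control replicates 5 and 8, so that it passed the filter through its treated level. The log2 fold change was 2.10 (SE 0.24), and because the controls lie near the pseudocount it ran from 1.73 with a pseudocount of 1 to 2.60 with a pseudocount of 0.1.

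FOS (ENSGALG00000028037), the founding partner of JUN in AP-1, was at 44.1, 51.4, 72.5, 51.0 and 59.0 FPKM in treated replicates and at 25.2, 20.2, 31.8, 29.6 and 30.5 FPKM in controls. All treated libraries were above all controls, with a log2 fold change of 1.003 (SE 0.16). FOSL2 (ENSGALG00000010036), the Fra-2 protein of AP-1, was at 35.9, 56.3, 44.7, 75.7 and 44.9 FPKM against 57.8, 52.6, 43.5, 54.6 and 34.2 FPKM. For FOSL2 the groups lay over each other, with only treated replicate 5 above the highest control, and the log2 fold change was 0.06 (SE 0.20). Its sign was negative without treated replicate 5 (-0.09) or control replicate 8 (-0.06).

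Of the shares of the FOS transcripts, only that of FOSB stood apart between the groups. In controls FOSL2 was the major one, at 51.9 to 71.5% of the sum of FOS, FOSB and FOSL2, and FOS was below FOSL2 in all 5 (0.383 to 0.890 times). The FOSL2 share was 36.0 to 58.1% with the donor, so that the groups overlapped. That of FOS was 39.2 to 58.4% against 27.4 to 46.2% in controls, also with overlap. In treated libraries FOS was above FOSL2 in replicates 2, 4 and 8 (1.23, 1.62 and 1.31 times) and below it in replicates 3 and 5 (0.913 and 0.674 times). FOSB made up 2.70 to 5.84% of the sum with the donor and 0.315 to 1.97% without it, without overlap. FOSL1 was not found by name in the table and was not analysed here.

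The JUN genes had the highest levels of the 10. JUN (ENSGALG00000010870), the main activating partner of FOS, was at 396, 452, 560.4, 557 and 470.1 FPKM with the donor and at 492, 402, 474, 478 and 466 FPKM in controls. Treated replicate 2 was the lowest of all 10 libraries and treated replicates 4 and 5 the highest. The log2 fold change was 0.07 (SE 0.13) as deposited, and median-ratio scaling brought it to 0.25 (SE 0.09). JUN was then at 517 ± 39.1 FPKM with the donor and 434 ± 39.2 FPKM in controls (SD, n = 5). After that scaling 3 treated libraries lay above every control, and the groups still overlapped. JUND (ENSGALG00000043641) was at 240.3, 315, 375, 338 and 242 FPKM against 328, 257, 310.4, 239 and 314 FPKM, with the groups over each other and a log2 fold change of 0.05 (SE 0.16). Its sign was negative without treated replicate 4 (-0.04) or control replicate 5 (-0.02). Median-ratio scaling brought the JUND value to 0.24 (SE 0.11), with 4 treated libraries above every control and the groups still overlapping. The ratio of JUN to JUND was 1.63 ± 0.196 with the donor and 1.61 ± 0.216 in controls (SD, n = 5), a difference smaller than the spread between replicates.

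Set against the JUN genes within each library, the FOS genes stood higher with the donor. FOS, FOSB and FOSL2 together came to 13.3 to 15.3 FPKM per 100 FPKM of JUN and JUND in treated libraries and to 8.46 to 11.9 in controls, without overlap. This ratio, the shares within the FOS and NR4A genes above and the ratio of EGR1 to JUN below are built from the values that chose the genes. They are descriptions only. In every library the FPKM of the JUN genes, a level per length, exceeded that of the FOS genes. JUNB was not found by name and was not analysed here.

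**Figure D2:**
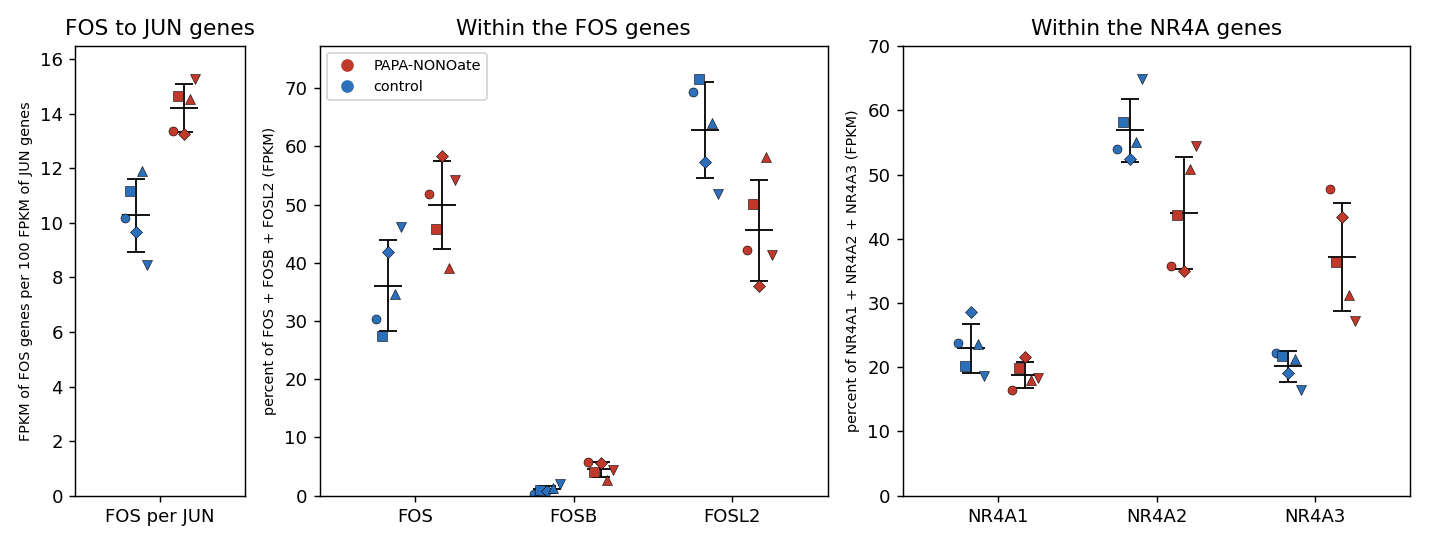
Makeup of the FOS, JUN and NR4A transcripts per library: FPKM of FOS genes per 100 FPKM of JUN genes (left), and percent of summed FPKM taken by each FOS gene (middle) and each NR4A gene (right), with bars at mean ± SD (n = 5) and a marker shape per replicate number. The FOSB share (2.70 to 5.84% against 0.315 to 1.97%), the NR4A3 share (27.2 to 47.8% against 16.5 to 22.3%) and the FOS to JUN ratio do not overlap between treated libraries in red and controls in blue.

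EGR1 (ENSGALG00000007669), a zinc finger factor of the serum response, was at 140.1, 217, 227, 208 and 179.6 FPKM with the donor and at 135, 102, 114, 137 and 110.1 FPKM in controls. Treated replicate 2 stood just above the highest control, at 1.02 times its level, and the other 4 treated libraries were well clear of it. After median-ratio scaling the gap between the groups was wider, at 184 to 234 against 98.6 to 142. The ratio of EGR1 to JUN, which needs no scaling between libraries, was 0.354 to 0.480 against 0.237 to 0.286. ATF3 (ENSGALG00000049422), a stress-induced factor that mostly represses as a pair with itself, was at 131, 90.6, 111, 115 and 105 FPKM against 88.9, 64.4, 65.0, 69.1 and 73.8 FPKM. Treated replicate 3 was only 1.02 times control replicate 2, and the others were higher. The log2 fold changes were 0.69 (SE 0.15) for EGR1 and 0.61 (SE 0.13) for ATF3.

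**Figure D3:**
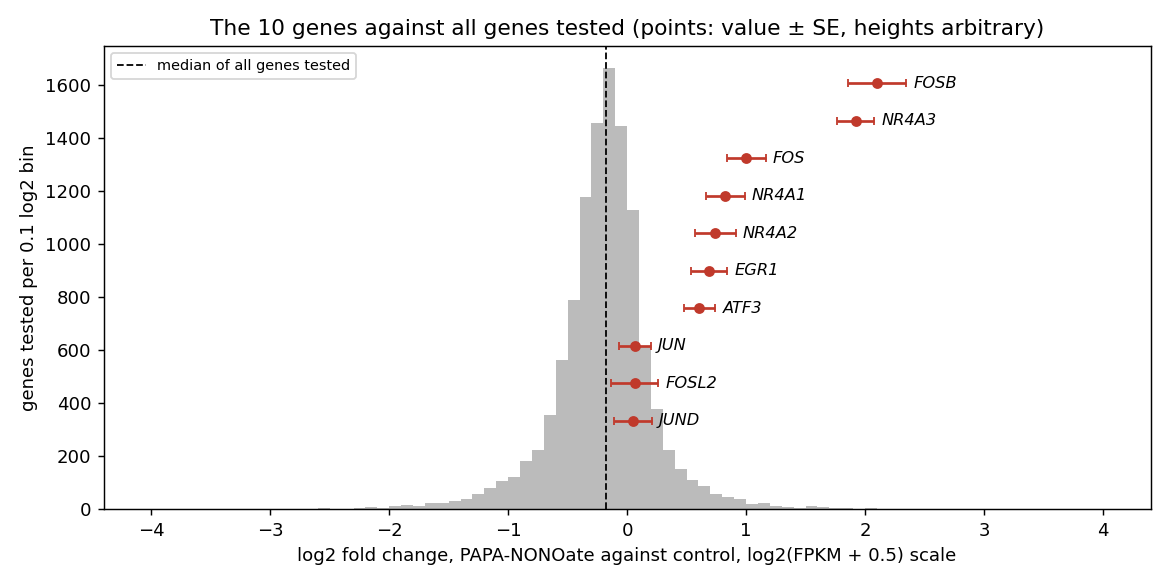
Log2 fold changes (PAPA-NONOate against control, log2(FPKM + 0.5) scale) of the 10 genes as points with SE, over the histogram of all 11357 genes tested in bins of 0.1, with the dashed line at the median of -0.18. FOSB (2.10) and NR4A3 (1.92) stand at the far right, 5 genes lie from 0.61 to 1.003, and JUN, FOSL2 and JUND (0.05 to 0.07) lie within the body of the distribution.

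In the order of levels JUN, JUND, EGR1 and ATF3 came first in both groups, each above the next in all 5 libraries and without overlap of the ranges. FOSL2 was above FOS in controls, without overlap, while with the donor FOS (55.6 ± 10.8 FPKM) and FOSL2 (51.5 ± 15.3 FPKM, SD, n = 5) did not differ beyond their spread. FOS and NR4A2 had overlapping ranges in controls, as had NR4A1 and NR4A3, and NR4A2 and NR4A3 had them with the donor. FOSB came last in both groups. Against all genes tested, mean control levels ran from the percentile of 0.581 for FOSB to 98.9 for JUN, and mean treated levels from 31.2 to 99.1 for the same genes.

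Libraries differed in a way that many, but not all, of the genes shared. ATF3, for example, had its highest treated value in replicate 2 (131 FPKM). Treated replicate 4 held the highest treated value of 7 members (NR4A1, NR4A3, FOS, FOSB, JUN, JUND and EGR1), and treated replicate 2 held the lowest treated value of 7. Treated replicate 2 also had the lowest summed FPKM of all libraries (394921, where the others had 470676 to 605493) and the lowest scaling factor (0.760 against 0.938 to 1.17). Among the controls replicate 3 held the lowest value of 7 members. Relative depth, read from the lowest FPKM values, ran from 0.653 (treated replicate 8) to 1 (control replicate 2, set as the reference). How many reads a library held is unknown. The part of depth and library in these values was not tested. After median-ratio scaling the groups did not overlap in 7 of the 10 genes, with NR4A2 added to the 6. No share over all genes is given for that scaling. It also moved the genes called higher from 219 to 798, and nothing is read from the 7.

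**Figure D4:**
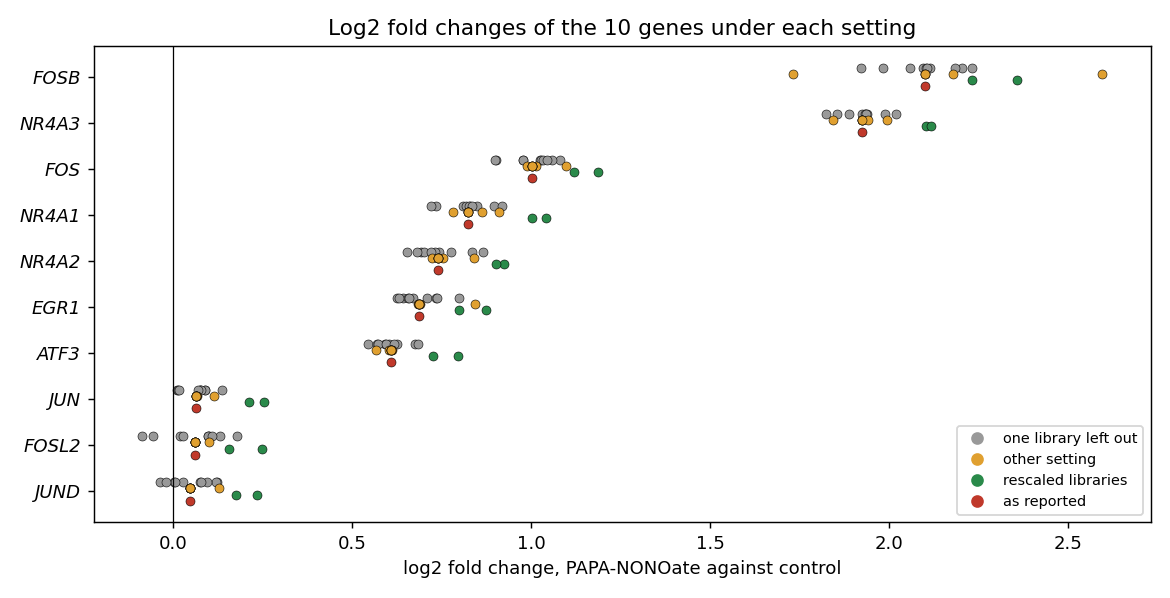
Log2 fold changes of the 10 genes as reported (red), with the libraries rescaled (green), with 1 library left out (grey) and under the other settings (orange). The 7 genes from ATF3 to FOSB keep positive values of at least 0.54, JUN stays between 0.01 and 0.25, and FOSL2 (-0.09 to 0.25) and JUND (-0.04 to 0.24) lie on both sides of 0.

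For 5 members the tested genes with the most similar profile were sought, by the mean absolute difference between log2(FPKM + 0.5) values over the 10 libraries, each gene less its own mean, among 9321 other named genes. Closest to NR4A3 was ESM1, an endothelial proteoglycan gene (0.25), followed by HS3ST1 (0.28) and BAALC (0.28). With the donor ESM1 was nearly level, at 7.076 ± 0.0444 FPKM (SD, n = 5). NR4A3 ran from 17.8 to 31.1 FPKM in the same libraries. The likeness of ESM1 to NR4A3 is therefore that of the step between the groups, not of the spread among treated libraries. Closest to FOSB were CYR61, a matricellular protein gene (0.30), CYP1A1 (0.32) and LIPG (0.33). The controls of CYP1A1 (0.0144 to 0.482 FPKM) lay below the pseudocount, so that it passed the filter through its treated level. Its likeness to FOSB therefore depends on the pseudocount. Closest to FOS were LURAP1L (0.12), the interferon regulatory factor gene IRF1 (0.14) and HHLA2 (0.14). For EGR1 they were HEXIM1 (0.13), the transcriptional repressor gene PRDM1 (0.13) and INVS (0.15), and for JUN ZNF302 (0.03), the NF-kappaB subunit gene REL (0.06) and PPARD (0.07). Among the members themselves the closest pair was NR4A1 and FOS (0.11), and next came JUN and JUND (0.13). Likeness here includes the difference between the groups, which was used to choose the members. Likeness within the groups alone was not tested, and no shared variation between libraries is read from these values.

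Other genes of these families and of the pathways around them were taken from lists chosen with earlier results of these data known. For these genes limma's adjusted p over all genes is given, and the counts per list are descriptions. Of all genes tested 1.93% were called higher and 7.41% lower. With median-ratio scaling 798 genes were called higher and 731 lower, in place of 219 and 842. Leaving out 1 library moved the 842 by more than 1.5 times in 6 cases: to 528 without treated replicate 3, to 1579 without treated replicate 5, and to 339, 485, 432 and 412 without control replicate 2, 3, 4 or 8.

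Of the other leucine zipper partners, which include the BATF, JDP2 and BACH genes, 11 of 15 symbols were found and 9 were tested, of which 0 were called in either direction (limma, with 0 higher and 2 lower at an unadjusted p under 0.05). With median-ratio scaling 2 were called higher and 0 lower. Their median log2 fold change was -0.19, beside -0.18 for all genes. JDP2, a repressor of AP-1, stood at 19.5 ± 4.52 FPKM with the donor and 24.5 ± 2.53 FPKM without it (SD, n = 5), with an adjusted p of 0.176 for a difference of -0.34. JDP2 was singled out after its values were seen. In the same comparison 7 of 13 tested macrophage and myeloid markers were called lower and 0 higher (limma, 0 higher and 10 lower at an unadjusted p under 0.05). The summed level of that list was 193 to 512 FPKM with the donor and 547 to 920.1 FPKM in controls, no found marker was at 0 in every library, and the part of these cells in the result was not tested.

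The CREB, ATF and C/EBP genes had 2 of 16 tested members higher and 1 lower (4 and 1 with median-ratio scaling). CREM, whose inducible repressor form answers to cAMP, rose from 80.3 ± 12.2 to 132 ± 19.1 FPKM (SD, n = 5), by 0.71 on the log2 scale (SE 0.14, adjusted p = 0.00952), with treated libraries at 101 to 149 and controls at 66.6 to 94.5. ATF4, the effector of the integrated stress response, rose to 1407 ± 166 from 950.0 ± 109 FPKM (a log2 difference of 0.57, adjusted p = 0.0254). That call was lost when treated replicate 3 or 4, or control replicate 3, 4 or 5, was left out (adjusted p = 0.0514 to 0.0723). CREB3L1, a membrane-bound factor active in collagen-secreting cells, fell by 1.05 on the log2 scale (adjusted p = 0.00425). In the same comparison 3 of 9 fibroblast markers were called lower and 0 higher (limma, 0 higher and 8 lower at an unadjusted p under 0.05). The summed level of these markers was 310.4 to 1142 FPKM against 1011 to 1992 FPKM in controls, none was at 0 in every library, and their part in the result was not tested. The median of the CREB, ATF and C/EBP list was -0.02.

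Of the EGR relatives, EGR3, a factor known in mice from muscle spindles and lymphocytes, rose from 24.7 ± 2.73 to 44.7 ± 8.79 FPKM (SD, n = 5), by 0.83 on the log2 scale (SE 0.15, adjusted p = 0.00563). The treated libraries were at 31.3, 50.6, 40.2, 49.8 and 51.7 FPKM and the controls at 21.5, 25.0, 24.1, 29.0 and 23.8 FPKM, without overlap. EGR2 (log2 fold change 0.13) and the EGR co-repressors NAB1 (-0.05) and NAB2 (0.13) were not called. The retinoid X receptor genes RXRA (-0.08) and RXRG (-0.04), whose products pair with NR4A1 and NR4A2, were not called either. EGR2, the NAB genes, the retinoid X receptor genes and SRF below were named after their values were seen.

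The genes upstream were mostly not called. SRF, which binds the serum response elements of FOS and EGR1, was at 27.8 ± 4.80 FPKM with the donor and 27.7 ± 2.96 FPKM in controls (SD, n = 5), and the interval of the log2 difference ran from -0.30 to 0.30. With ELK3, ELK4, MRTFA and the CREB coactivators 8 genes of that list were tested, of which 0 were called (limma, 0 higher and 1 lower at an unadjusted p under 0.05). Of 22 tested kinases of the MAPK cascades 0 were called (limma, 1 higher and 3 lower at an unadjusted p under 0.05), and their median difference was -0.12 on the log2 scale. With median-ratio scaling 2 of these kinases were called higher. Of the kinase and phosphatase genes that depend on cGMP, cAMP or calcium, PRKG1, PRKACA, PRKACB and CAMKK2 were not found by name and were not analysed here. Of the 15 tested, PRKAR1A, a regulatory subunit of protein kinase A, fell by 0.56 on the log2 scale (adjusted p = 0.0367). That call was lost when treated replicate 3, 4 or 8, or control replicate 2, 3, 4 or 8, was left out (adjusted p = 0.0574 to 0.101).

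Feedback genes of the MAPK pathway had 2 of 15 tested members higher and 1 lower (5 and 1 with median-ratio scaling), with a median log2 fold change of 0.13. DUSP5, a nuclear phosphatase of ERK, rose from 19.9 ± 4.006 to 33.7 ± 8.28 FPKM (SD, n = 5), by 0.73 on the log2 scale (adjusted p = 0.0251). SPRY2, an inhibitor of receptor tyrosine kinase signalling, rose by 0.54 on the log2 scale (adjusted p = 0.0346), and the groups overlapped in both genes. DUSP14 fell by 0.55 on the log2 scale (adjusted p = 0.0221). The call of DUSP5 was lost when treated replicate 4 or 8, or control replicate 2, 3, 5 or 8, was left out (adjusted p = 0.0513 to 0.0681). That of SPRY2 was lost when treated replicate 3, 4 or 8, or control replicate 2, 3, 5 or 8, was left out (adjusted p = 0.0612 to 0.0915). That of DUSP14 was lost when treated replicate 3 or 8, or control replicate 2 or 4, was left out (adjusted p = 0.0533 to 0.0628).

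Other immediate early genes had 6 of 33 tested members higher and 0 lower (limma, 11 higher and 3 lower at an unadjusted p under 0.05). With median-ratio scaling 14 of the 33 were called higher and 0 lower. Their median log2 fold change was 0.20 and 27 of them lay above the median of all genes. HBEGF, a growth factor of the EGF family, was at 97.0, 94.2, 105, 75.7 and 116 FPKM with the donor and at 40.8, 40.8, 46.7, 39.5 and 56.9 FPKM in controls. The rise was 1.11 on the log2 scale (SE 0.14, adjusted p = 0.000828), without overlap of the groups. CYR61 rose by 1.80 (adjusted p = 0.000875) and RND3, a small GTPase gene, by 0.88 (adjusted p = 0.00136). The remaining 3 calls, named after their values were seen, were the log2 fold changes of IFRD1 (0.71), KLF6 (0.64) and ERRFI1 (0.60), an inhibitor of the EGF receptor. MYC, which drives cell growth, did not pass (log2 fold change 0.30, adjusted p = 0.164), nor did IER5 (0.27, adjusted p = 0.292), and both were also picked after their values were seen. The 3 genes lower at an unadjusted p under 0.05 were GEM (-0.83, adjusted p = 0.107), HES1 (-0.48, adjusted p = 0.109) and KLF2 (-0.35, adjusted p = 0.162). They too were named after their values were seen.

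**Figure D5:**
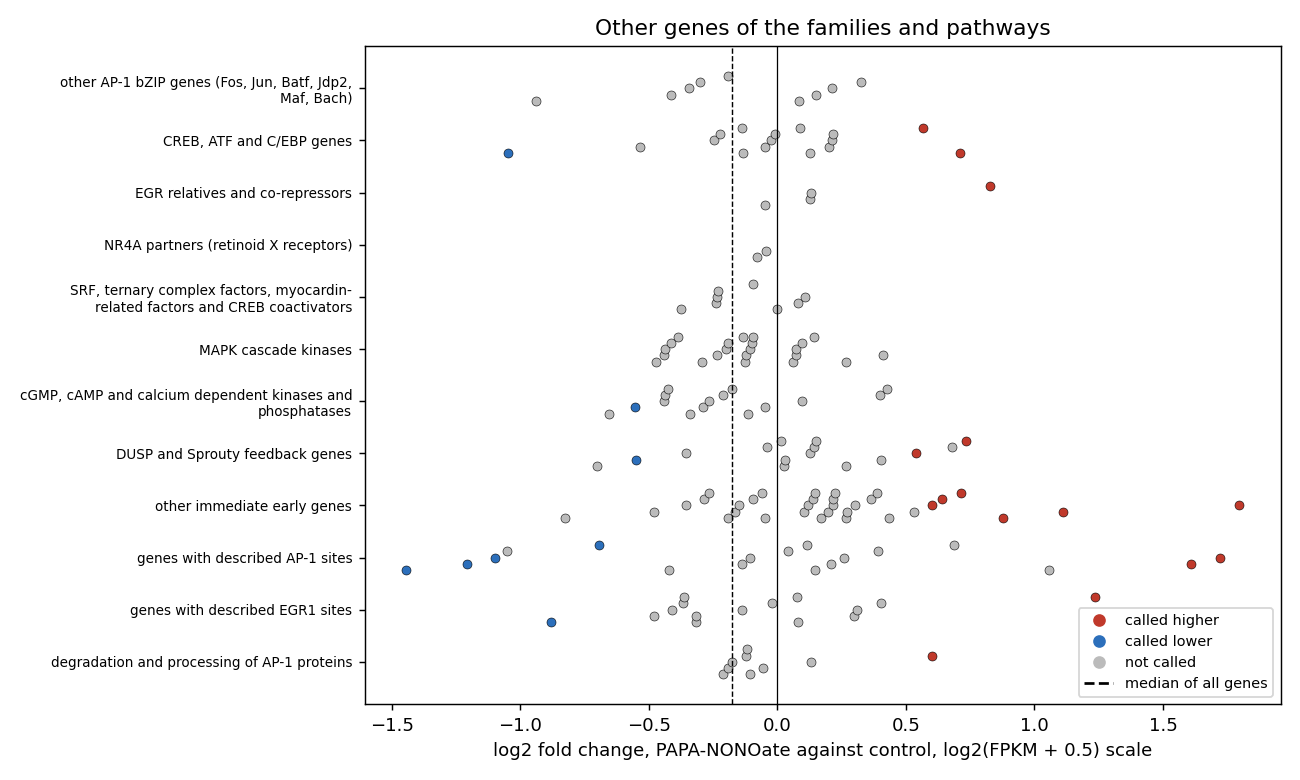
Log2 fold changes (PAPA-NONOate against control, log2(FPKM + 0.5) scale) of the other tested genes of the families and pathways, 1 row per list and 1 point per gene, with genes called higher in red, lower in blue and not called in grey. The row of other immediate early genes has 6 red points up to CYR61 (1.80), and those of the SRF group and the MAPK kinases have none.

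Genes with AP-1 sites described in other species moved in both directions, 2 of 18 tested higher and 4 lower, with a median log2 fold change of 0.08. With median-ratio scaling the counts were 5 higher and 4 lower. MMP1, a collagenase gene, rose from 141 ± 59.8 to 420.1 ± 122 FPKM (SD, n = 5), by 1.61 on the log2 scale (SE 0.26, adjusted p = 0.0028). The chemokine gene IL8 rose by 1.72 on the log2 scale (SE 0.26, adjusted p = 0.00204), with treated libraries at 90.3 to 255 and controls at 32.4 to 57.8 FPKM. The galectin gene LGALS3 fell by 1.10 on the log2 scale (adjusted p = 0.00352), the vimentin gene VIM by 0.70 (adjusted p = 0.0204), the osteopontin gene SPP1 by 1.44 (adjusted p = 0.0255) and MMP9, a gelatinase gene of macrophages among other cells, by 1.21 (adjusted p = 0.0266), the last of these named after its values were seen. The fall of VIM was not called without control replicate 4 (adjusted p = 0.0552), that of SPP1 when treated replicate 8, or control replicate 2, 3 or 4, was left out (adjusted p = 0.0576 to 0.077), and that of MMP9 when treated replicate 4 or 8, or control replicate 2, 3, 5 or 8, was left out (adjusted p = 0.0525 to 0.0767). Macrophage and fibroblast markers, whose levels and counts are given above, had lower mean sums in the same libraries. Of 4 tested T and B lymphocyte markers 3 (CD3D, CD3E and PTPRC) were called lower and 0 higher, and CD247 (log2 fold change 0.20) was not called. PTPRC is also among the 7 macrophage and myeloid markers called lower. CD79B and PAX5 lay below the filter and were not tested. These lymphocyte list genes were named after their values were seen. The part of macrophages, fibroblasts or lymphocytes in the falls was not tested.

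Genes with described EGR1 sites had 1 of 15 tested members higher and 1 lower, with a median log2 fold change of -0.14. THBS1, the thrombospondin gene, rose from 48.8 ± 11.7 to 115 ± 21.8 FPKM (SD, n = 5), by 1.24 on the log2 scale (SE 0.18, adjusted p = 0.00194), with every treated library above every control. HPSE, the heparanase gene, fell by 0.88 on the log2 scale (adjusted p = 0.0299), a call lost after quantile normalization (adjusted p = 0.0674) and when treated replicate 2 or 8, or control replicate 2, 3 or 4, was left out (adjusted p = 0.0518 to 0.0839). Of 9 tested genes for the degradation and modification of AP-1 proteins, TRIB2, a pseudokinase gene that recruits the ubiquitin ligase COP1, rose by 0.60 on the log2 scale (adjusted p = 0.0101), and 0 fell (limma, 0 lower at an unadjusted p under 0.05).

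The tissue label was checked against markers. The endothelial gene PECAM1 (93.5 ± 25.4 and 89.1 ± 14.01 FPKM), the stromal gene DCN (236 ± 88.0 and 499 ± 99.0), the smooth muscle gene MYH11 (5.73 ± 3.61 and 5.46 ± 2.29) and the pigment gene TYR (4.15 ± 6.45 and 11.8 ± 18.2) were present with the donor and in controls (SD, n = 5). The TYR means rested largely on replicate 2 (15.5 and 44.2 FPKM), with the other libraries at 0.225 to 7.21 FPKM. DCN was called lower with the donor (limma, log2 fold change -1.14, adjusted p = 0.0109), without overlap. PECAM1 and MYH11 do not stand for their whole lists. Of 10 tested endothelial markers 1 was called lower and 0 higher (limma, 1 higher and 3 lower at an unadjusted p under 0.05). Of 9 tested smooth muscle and pericyte markers 2 were called lower and 1 higher (limma, 1 higher and 3 lower at an unadjusted p under 0.05). The pigment epithelium gene RPE65 was near 0 (0.101 ± 0.0980 and 0.0984 ± 0.0879), and the 10 photoreceptor and retina genes found summed to at most 1.69 FPKM in a library. The haemoglobin gene HBAD was at 105 ± 27.2 and 54.5 ± 32.4 FPKM.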

How the data were processed

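Poly(A)-selected, strand-specific libraries of choroid, 10 in all, were sequenced and are grouped by their titles. The values are FPKM as deposited by the authors, in 1 table of 24355 genes. The submitters' processing notes name the build GRCg6a and the tools SAMtools and Cufflinks, without versions. The aligner and the gene models were not given in the sources used here. The deposited FPKM hold no read counts, so that no counting intervals are given. In all 14 values of 10 genes stand at 999999999 and were treated as missing, and genes with a missing value were left out of the test. A 0 in the table can also be a failed estimate, and how fragments were divided between near-identical genes is not given.

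The test was the two-sided one of limma 3.58.1 in R 4.3.3, on log2(FPKM + 0.5) with the variance modelled on the mean level, for 11357 genes with at least 1 FPKM in at least 5 libraries. Degrees of freedom were 8 (residual) and 4.83 (prior), and calls had a Benjamini-Hochberg adjusted p, over all of these genes, under 0.05. Fold changes on this scale understate those of weakly expressed genes. The script was tested on simulated data. Median-ratio factors came from genes above 0 in every library. Alternatives were 2 pseudocounts, 2 filters, 2 scalings, the replicate block, library weights, no trend and each library left out.

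The 10 genes and all lists were chosen with earlier results of these data known. Named were all 10 genes and up to 3 genes called in each direction per list with the smallest adjusted p. To these came 3 genes of similar profile for 5 members and 6 tissue markers. Other genes fall outside this rule, and most are marked where named. Some names in the lists were not found in the table and were not analysed here. Sequences of promoters and proteins were not used here. Chromosomal neighbours came from the RefSeq gene table of assembly GRCg7b, by name only. Figures were drawn with matplotlib 3.10.9. A result for a listed gene is not reported here.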

Additional observations from a re-analysis of the deposited data

Results flagged for a closer look

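Of 92 groups of 5 values (members, named list genes and ratios between members, by treatment) 5 held a library whose gap to the nearest other exceeded Dixon's 95% critical share of the group's range, and chance alone flags about 1 group in 20. NR4A2 in control replicate 8 stood at 23.6 FPKM, with the other controls at 13.9 to 16.02, and it is this library that made the groups overlap. The ratio of JUN to JUND in control replicate 5 was 1.997, against 1.48 to 1.57 in the other controls. The ratio of FOSL2 to FOSB in control replicate 2 was 220.6, where FOSB was at 0.262 FPKM. CREB3L1 in treated replicate 5 was at 11.7 FPKM, and MMP1 in control replicate 5 was at 245 FPKM. The causes were not tested.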

How the results depend on the processing

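Genes called higher numbered 219 as deposited, 798 with median-ratio scaling, 733 when quantile normalized, 383 with library weights and 152 to 242 with 1 library left out. Genes called lower numbered 842, then 449 with the filter at 5 FPKM, 1424 with library weights and 339 to 1579 with 1 library left out. Of 166 tested family and pathway genes 15 were called higher, 36 with median-ratio scaling, 31 when quantile normalized and 12 to 17 with 1 library left out. Called lower were 8, with 3 without the filter, 14 with library weights and 3 to 15 with 1 library left out, the 15 being without treated replicate 5. Whether the replicate numbers pair the libraries is not stated, and the values were mixed. The correlation of deviations from group means between same-numbered libraries was 0.00, 0.29, 0.30, -0.02 and 0.19 for replicates 2, 3, 4, 5 and 8. Of 5 treated libraries 3 correlated best with their own number. Each of the 6 tested pigment genes was highest in replicate 2 in both groups. Among them PMEL stood there at 84.1 FPKM with the donor and 165 FPKM in controls. These genes were picked after their values were seen. With the replicate number as a block 213 genes were called higher and 680 lower, and 17 and 8 of the listed genes, with PRKAR1A (adjusted p = 0.0793) and DUSP14 (adjusted p = 0.0571) not called. FOSB was not tested with the filter at 5 FPKM. Of the 19 named list genes 11 kept their calls under each of the 19 alternatives in which they were tested. Without the filter ATF4, DUSP5, HPSE, PRKAR1A, SPP1, SPRY2, VIM and MMP9 lost theirs (adjusted p = 0.0523 to 0.0986). The log2 fold change of FOSB was 2.60 with a pseudocount of 0.1. Median-ratio scaling brought that of JUN from 0.07 to 0.25 and that of the median gene from -0.18 to -0.00.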

Other observations

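In the lists of EGR relatives and of other immediate early genes 5 genes lay below the filter and were not tested. They fall outside the naming rule, and values of untested genes in the other family and pathway lists are not shown here. EGR4, a neuronal EGR relative, was at 1.27, 0.539, 2.78, 0.449 and 0.479 FPKM with the donor and at 0.0582, 0.421, 0.218, 0.0440 and 0.112 FPKM in controls (replicates 2, 3, 4, 5 and 8), with a small gap between the groups. ARC, a synaptic activity gene, was at 0.538 to 1.27 FPKM against 0 to 0.349 FPKM. The groups overlapped for HOMER1 (0.586 to 1.79 against 0.497 to 1.02 FPKM), WT1 (0.176 to 0.407 against 0.0872 to 0.389 FPKM) and CSRNP3 (0.184 to 0.902 against 0.476 to 0.767 FPKM), of which CSRNP3 had the lower mean with the donor.

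In the gene order of the RefSeq table, 8 protein-coding genes next to a member were matched by name and tested, and 0 of them were called (limma, 3 at an unadjusted p under 0.05). Beside FOS lay TMED10 (log2 fold change 0.04) and JDP2 (-0.34), beside NR4A3 STX17 (0.38, adjusted p = 0.0863) and SEC61B (-0.04), beside NR4A1 ATG101 (0.03) and GRASP (0.20), beside EGR1 REEP2 (-0.26) and beside ATF3 NENF (-0.41, adjusted p = 0.0795). The neighbours were added after the table had been seen.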
